A study of Mus musculus with 11 samples.

Results

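The genes of the unfolded protein response and the chaperones of the endoplasmic reticulum (ER) were examined in primary mesenchymal stromal cells, the adherent cells of mouse bone marrow that can form bone, fat and cartilage. The set held 32 genes chosen by symbol, out of 20348 genes listed in either deposited table. All 32 had a row in both tables, and all 32 passed the filter on low values, which asked for 10 or more normalised reads in a number of libraries equal to the size of the smaller group. They fell into 12 ER chaperones and folding enzymes, 6 genes of ER-associated degradation and translocation, 6 sensors and transcription factors of the response, and 8 target genes of the transcription factor ATF4. The libraries came from ANXA2 knockout mice (3 libraries), ANXA5 knockout mice (4 libraries) and wild type mice (4 libraries). All were of the C57/BL6 strain and untreated, and each knockout targets the gene of an annexin, a protein that binds phospholipid membranes in the presence of calcium. The sources used here give no age, sex or construction of the alleles, nor whether libraries of a group came from separate animals. The p-values therefore reflect only how much these libraries vary, and part of that may be technical. Xist, the RNA of the inactive X chromosome, was nearly absent from some wild type and ANXA5 knockout libraries and abundant in others. The sex of the animals may thus differ within and between the groups. Each knockout was compared with the wild type within its own table, and both comparisons share the same 4 wild type libraries, so that similar differences in both are not independent of each other. Wild type values differ between the tables because each table was scaled on its own.

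The unfolded protein response is the programme by which a cell answers unfolded proteins in the ER, the compartment where secreted and membrane proteins are folded. Sensors in the ER membrane (ATF6, IRE1 encoded by Ern1, and PERK encoded by Eif2ak3) lead to active ATF6 and XBP1, which turn on ER chaperones and degradation genes, and to ATF4, which turns on genes of amino acid supply and redox balance. Stromal cells of the bone marrow secrete large amounts of collagen and other matrix proteins and therefore depend on this folding machinery. ATF4 is also reached by other kinases of the integrated stress response, so its targets can move apart from the chaperones.

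The factors behind the chaperone genes and the ATF4 targets read known DNA elements, and the promoters of the genes that the results turn on are shown for that reason. Sequences are those of RefSeq on build GRCm38.p6, whose table had a promoter window (250 bases before to 50 after the start) for 28 of the 32 genes (all but Hyou1, Manf, Atf6 and Slc7a5). Bases are written 5' to 3' along the gene, and capitals mark a match on either strand to the ER stress response element (ERSE, CCAAT and CCACG with 9 bases between them), to ERSE-II (ATTGG and CCACG with 1 base between them) or to the C/EBP-ATF response element read by ATF4 (CARE, TTNCATCA). The first group of lines gives the 250 bases before the start of Sdf2l1 and Creld2, the chaperone genes with the smallest p in both comparisons, and of Herpud1, the degradation gene with the smallest p in the ANXA2 comparison.
Sdf2l1 (chr16:17132384-17132633, minus strand): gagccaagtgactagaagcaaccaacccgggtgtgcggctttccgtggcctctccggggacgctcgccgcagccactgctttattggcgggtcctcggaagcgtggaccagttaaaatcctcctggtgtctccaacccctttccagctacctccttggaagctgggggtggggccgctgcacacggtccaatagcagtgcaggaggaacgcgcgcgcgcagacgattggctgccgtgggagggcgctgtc
Creld2 (chr15:88819396-88819645, plus strand): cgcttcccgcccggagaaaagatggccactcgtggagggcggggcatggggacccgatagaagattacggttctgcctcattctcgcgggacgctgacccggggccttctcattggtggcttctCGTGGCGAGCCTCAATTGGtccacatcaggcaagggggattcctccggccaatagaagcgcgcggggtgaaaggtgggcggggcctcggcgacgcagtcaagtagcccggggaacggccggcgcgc
Herpud1 (chr8:94386179-94386428, plus strand): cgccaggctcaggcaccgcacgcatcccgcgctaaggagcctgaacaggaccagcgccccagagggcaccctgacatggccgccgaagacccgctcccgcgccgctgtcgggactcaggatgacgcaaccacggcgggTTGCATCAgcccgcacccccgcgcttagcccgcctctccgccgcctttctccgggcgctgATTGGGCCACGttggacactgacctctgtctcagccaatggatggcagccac

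The next lines give the other matches that lie before a start, each with its flanks, so that the element can be compared between chaperone genes that differed in their values.
Hspa5 (chr2:34772010-34772058, plus strand): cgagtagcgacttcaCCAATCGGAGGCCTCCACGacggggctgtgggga
Hsp90b1, far element (chr10:86705623-86705671, minus strand): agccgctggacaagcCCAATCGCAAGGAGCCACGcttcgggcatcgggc
Hsp90b1, near element (chr10:86705518-86705566, minus strand): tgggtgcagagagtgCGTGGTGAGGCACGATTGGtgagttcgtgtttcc
Canx (chr11:50325785-50325833, minus strand): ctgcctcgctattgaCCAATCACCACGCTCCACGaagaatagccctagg
Pdia6 (chr12:17266476-17266524, plus strand): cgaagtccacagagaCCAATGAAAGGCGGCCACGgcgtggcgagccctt
Dnajc3 (chr14:118937812-118937860, plus strand): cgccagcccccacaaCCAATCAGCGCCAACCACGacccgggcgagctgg
Syvn1 (chr19:6046517-6046565, plus strand): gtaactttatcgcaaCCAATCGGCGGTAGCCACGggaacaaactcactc
Chac1 (chr2:119351034-119351071, plus strand): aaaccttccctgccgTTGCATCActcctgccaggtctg
Asns (chr6:7693210-7693247, minus strand): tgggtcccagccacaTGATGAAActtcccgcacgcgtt

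ERSE matched in the promoter windows of 7 members (Hspa5, Hsp90b1, Canx, Pdia6, Dnajc3, Creld2 and Syvn1), 6 of them chaperone genes and 1 a degradation gene, against 0.119% of 32851 promoters of the table. ERSE-II matched in Herpud1 and, after the start, in Dnajb11, against 0.0365% of all promoters. CARE matched in 3 ATF4 targets (Chac1, Asns and, after the start, Trib3) and in Herpud1, against 3.97% of all promoters. The XBP1 element TGACGTGG (UPRE) was in none of the 28 windows and in 0.676% of all promoters. ERSE and ERSE-II share the letters CCACG, and none of the printed matches of one lies within a match of the other. The window of Sdf2l1 had no match to any of these letters, which says nothing about which factors bind there. A match is a description of letters and not a binding site. Among the chaperone genes with an ERSE match, the log2 difference between ANXA2 knockout and wild type was 0.62 for Creld2, 0.44 for Hspa5, 0.25 for Dnajc3 and 0.23 for Pdia6. It was -0.071 for Hsp90b1 with its 2 matches and -0.12 for Canx.

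The targeted genes checked the labels. Anxa2 was at 28.6% of its wild type mean in ANXA2 knockout libraries and Anxa5 at 9.24% in ANXA5 knockout libraries, and in both cases the groups were separate (exact permutation test, two-sided, p = 0.0286, the smallest these group sizes allow). Libraries held 23304225 to 35654634 reads over the listed genes, of which the 32 members took 0.504 to 0.695%. Member genes had between 61 and 64071 reads per library. The ANXA2 knockout libraries carry the numbers of their columns (1, 3 and 4), which are not those of the titles. Library 1 of them stood apart from libraries 3 and 4 in most members, and differences are also given without it below. Defining markers of stromal cells were abundant (12 markers summed to 1253000 to 1936000 normalised reads in ANXA2 knockout libraries and 948300 to 1653000 in wild type libraries), and markers of neutrophils and macrophages were present as well. In such mixed cultures, fewer cells of a type and less RNA per cell cannot be told apart.

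In both knockouts most ER chaperone genes had higher means than in the wild type, by small amounts, and none of the 32 genes passed the threshold of an adjusted p under 0.05 over all genes in limma, edgeR or limma-voom, while DESeq2 passed 2 of them in the ANXA5 comparison. limma called 0 of 32 members in the ANXA2 comparison, where 18 of 16123 genes (0.112%) were called, and 0 of 32 in the ANXA5 comparison, where 5 of 16224 genes (0.0308%) were called. edgeR (0.13% and 0.0308% of genes called) and limma-voom (0.112% and 0.0308%) also called 0 members in the ANXA2 and the ANXA5 comparison. DESeq2 called 0 members in the ANXA2 comparison, with 0.664% of genes called, and 2 in the ANXA5 comparison (Sdf2l1 and Creld2), with 1.71% of genes called. The authors' deposited tables, whose columns carry DESeq2's names, likewise held 0 members in the ANXA2 comparison, with 0.593% of genes past an adjusted p of 0.05, and the same 2 in the ANXA5 comparison, with 1.76%. At an unadjusted p under 0.05, limma had 4 members higher (Sdf2l1, Creld2, Manf and Herpud1) and 1 lower (Chac1) in ANXA2 knockout libraries, against 4.65% of all genes higher and 4.04% lower (8.69% in all). In ANXA5 knockout libraries it had 3 higher (Sdf2l1, Creld2 and Xbp1) and 0 lower, against 6.48% of all genes higher and 5.45% lower (11.9% in all). The ANXA2 knockout libraries lay wholly above the wild type in 3 members (Sdf2l1, Creld2 and Herpud1), where 4.56% of all genes did so and 4.63% lay wholly below (9.19% in all). The ANXA5 knockout libraries lay wholly above it in 2 (Sdf2l1 and Creld2), where 3.01% of all genes did so and 3.36% lay wholly below (6.37% in all), and no member lay wholly below in either comparison.

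**Figure D1:**
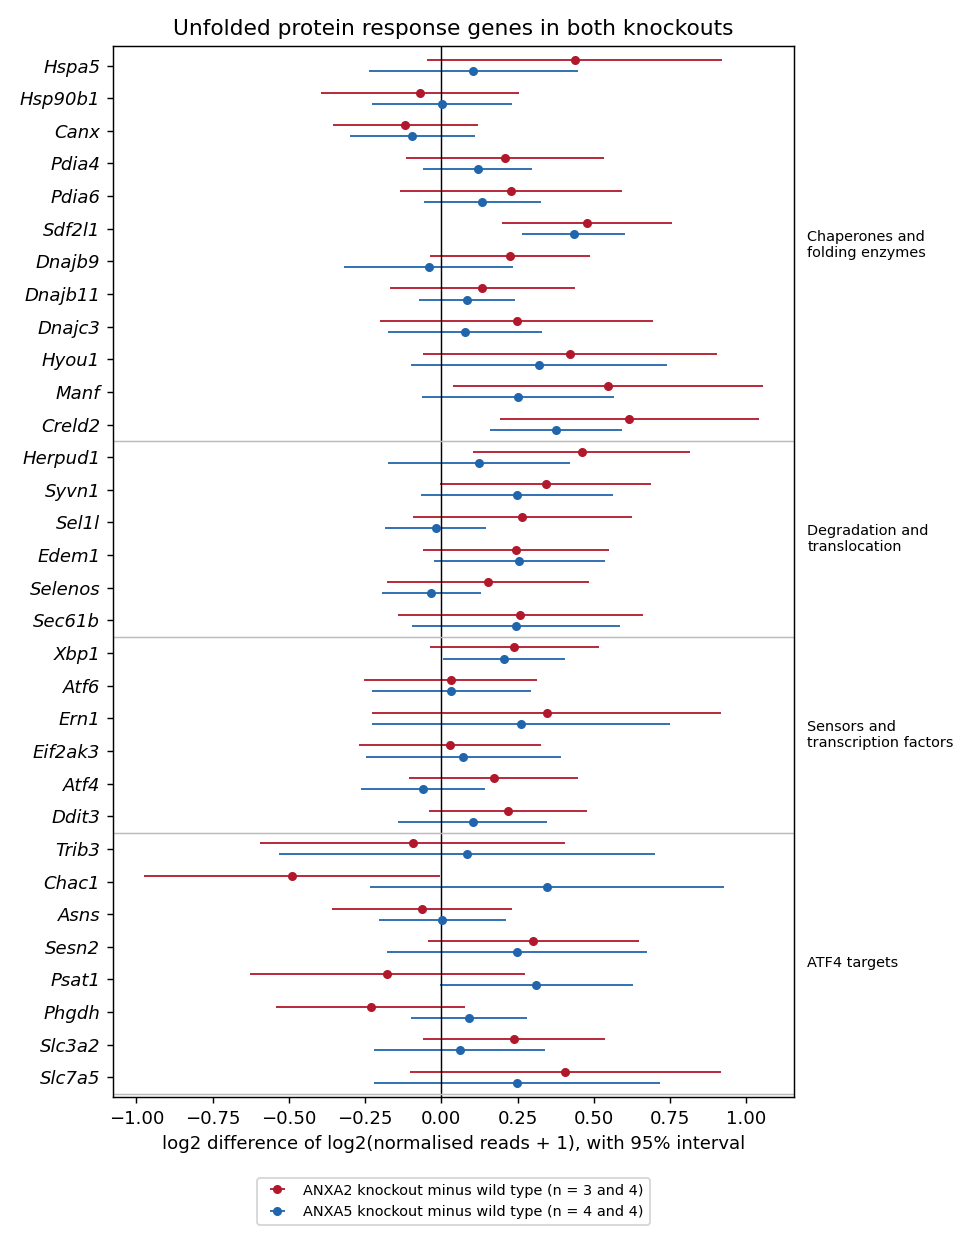
Log2 difference of each of the 32 genes between ANXA2 knockout and wild type (red, n = 3 and 4) and between ANXA5 knockout and wild type (blue, n = 4 and 4), with 95% intervals from limma, genes running down the page by role. The intervals of Sdf2l1 and Creld2 lie above 0 in both comparisons, and those of ATF4 targets spread on both sides of 0 in the ANXA2 comparison.

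Sdf2l1 and Creld2 stood out among the chaperones in both knockouts. Sdf2l1 (ENSMUSG00000022769.10, chromosome 16) encodes an ER luminal protein that works with BiP and its J-domain partner ERdj3. It had 2101, 1549 and 1689 normalised reads in ANXA2 knockout libraries, against 1292, 1260.0, 1173 and 1346 in wild type libraries. All 3 knockout libraries lay above all wild type libraries, with library 1 highest. Its mean was 1779 ± 287 in ANXA2 knockout libraries and 1268 ± 72.6 in wild type libraries (SD, n = 3 and 4), a log2 difference of 0.48 ± 0.123 (SE), limma adjusted p = 0.458. In the other table Sdf2l1 had 1876, 1991, 1848 and 1797 normalised reads in ANXA5 knockout libraries, against 1412, 1379, 1295 and 1476 in wild type libraries. The groups were again separate and the knockout libraries close together. Its mean was 1878 ± 82.4 in ANXA5 knockout libraries and 1391 ± 75.3 in wild type libraries (SD, n = 4 and 4), a log2 difference of 0.43 ± 0.0752 (SE), limma adjusted p = 0.173. In the authors' deposited table Sdf2l1 had a log2 fold change of 0.43 with an adjusted p of 0.000105 in the ANXA5 comparison and of 0.49 with an adjusted p of 0.101 in the ANXA2 comparison. DESeq2 run on the recovered reads gave an adjusted p of 8.72e-05 and of 0.0877 in those comparisons, so this gene passed in DESeq2 in the ANXA5 comparison, not in the ANXA2 comparison, and in neither with limma, edgeR or limma-voom.

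Creld2 (ENSMUSG00000023272.5, chromosome 15) encodes an ER protein with disulfide isomerase activity that is induced by ER stress and secreted. It had 2889, 1782 and 1779 normalised reads in ANXA2 knockout libraries, against 1552, 1374, 1414 and 1148 in wild type libraries. The groups were separate, with library 1 far above libraries 3 and 4. Its mean was 2149.9 ± 640.4 in ANXA2 knockout libraries and 1372 ± 168 in wild type libraries (SD, n = 3 and 4), a log2 difference of 0.62 ± 0.187 (SE), limma adjusted p = 0.518. Without library 1 that difference was 0.38. Creld2 had 1975, 1899, 2007 and 1893 normalised reads in ANXA5 knockout libraries, against 1698, 1504, 1561 and 1259 in wild type libraries. The 4 knockout libraries were within a narrow range above the highest wild type library. Its mean was 1943 ± 56.3 in ANXA5 knockout libraries and 1506 ± 183 in wild type libraries (SD, n = 4 and 4), a log2 difference of 0.38 ± 0.0966 (SE), limma adjusted p = 0.230. The authors' deposited table gave Creld2 a log2 fold change of 0.37 with an adjusted p of 0.0487 for ANXA5 and of 0.65 with an adjusted p of 0.175 for ANXA2.

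**Figure D2:**
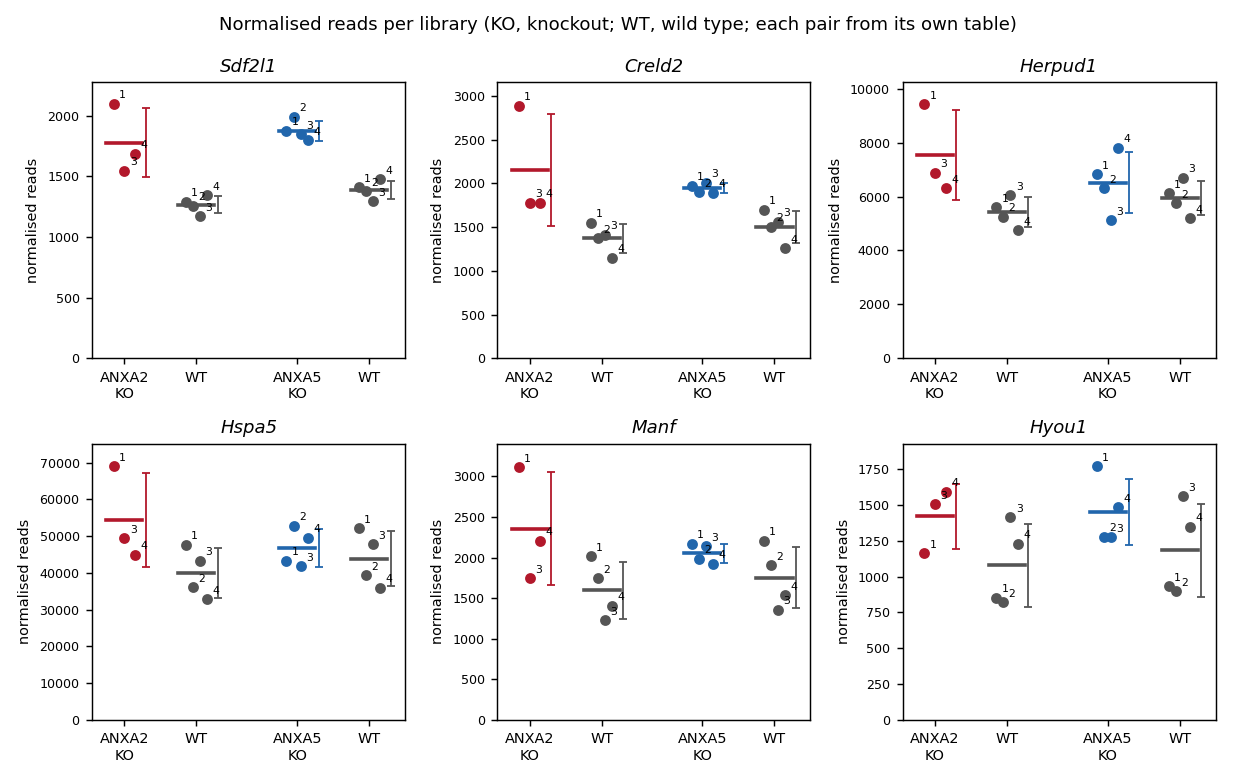
Normalised reads of Sdf2l1, Creld2, Herpud1, Hspa5, Manf and Hyou1 in every library (points, numbered as in the tables; bars, mean; error bars, SD), each knockout (KO) left of the wild type (WT) of its own table. Sdf2l1 and Creld2 separate both knockouts from the wild type, and library 1 of the ANXA2 knockout is the highest point of its group in all panels but that of Hyou1.

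Hspa5, which encodes BiP, the Hsp70 chaperone of the ER and the main regulator of the sensors, had 69052, 49345 and 44893 normalised reads in ANXA2 knockout libraries, against 47644, 36009.8, 43295 and 32804 in wild type libraries. Library 1 lay far above all others and library 3 just above the highest wild type library, while library 4 lay below it, and the log2 difference was 0.44 ± 0.213 (SE), limma adjusted p = 0.582. Hspa5 had 43274, 52763, 41781 and 49546 normalised reads in ANXA5 knockout libraries, against 52106, 39415, 47817 and 35971 in wild type libraries. These groups overlapped over most of their range, with a log2 difference of 0.11 and a 95% interval of -0.24 to 0.45. Manf, an ER protein that binds BiP and is released under stress, had 3116, 1747 and 2208 normalised reads in ANXA2 knockout libraries, against 2017, 1742, 1229 and 1404 in wild type libraries. Its groups overlapped, with a log2 difference of 0.55 ± 0.224 (SE), limma adjusted p = 0.568. Manf had 2171, 1984, 2136 and 1924 normalised reads in ANXA5 knockout libraries, against 2206, 1907, 1357 and 1539 in wild type libraries, and all 4 knockout libraries lay above 3 of the 4 wild type libraries, with a log2 difference of 0.25 (-0.062 to 0.57, 95% interval).

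Hyou1, the Hsp110-type nucleotide exchange factor of BiP, had 1161, 1503 and 1593 normalised reads in ANXA2 knockout libraries, against 851, 819, 1414 and 1229 in wild type libraries. The wild type libraries fell into a low pair (1 and 2) and a high pair (3 and 4), and the high pair reached into the knockout range, so the log2 difference of 0.42 had a 95% interval of -0.059 to 0.90. Hyou1 had 1769, 1278, 1275 and 1482 normalised reads in ANXA5 knockout libraries, against 930.5, 896, 1561 and 1348 in wild type libraries, again with the wild type spread across the knockout values and a log2 difference of 0.32 (-0.10 to 0.74). The same pairing of wild type libraries was present in Xist, the RNA of the inactive X chromosome, at 1829 and 1997 normalised reads of the ANXA2 table in wild type libraries 1 and 2 and at 1.16 and 0.959 in libraries 3 and 4. Wild type libraries 1 and 2 were both below libraries 3 and 4 in 9 members, Hyou1, Syvn1, Edem1, Sesn2, Slc7a5 and Ern1 among them, where 24.8% of all genes were so. They were both above in 7 members, where 24% of all genes were so. With the log2 Xist value as a covariate, the log2 difference of Hyou1 in the ANXA2 comparison was 0.58 and its limma adjusted p 0.0548. This was the smallest adjusted p of any member in that fit, which called 284 of 16123 genes and 0 members. Without the covariate limma called 18 genes.

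The other chaperone genes differed less. The J-domain proteins that hand substrates to BiP had log2 differences of 0.22 (Dnajb9), 0.13 (Dnajb11) and 0.25 (Dnajc3) in the ANXA2 comparison, and 0.19, -0.010 and 0.020 without knockout library 1. In the ANXA5 comparison theirs were -0.041, 0.084 and 0.077. The disulfide isomerases Pdia4 and Pdia6 had 0.21 and 0.23 in the ANXA2 comparison, 0.069 and 0.040 without knockout library 1, and 0.12 and 0.13 in the ANXA5 comparison. Hsp90b1, the Hsp90 paralog of the ER, had -0.071 and 0.0011, and the second of these values was below 0 with TMM scaling, edgeR, DESeq2, limma-voom and the Xist covariate. Canx, the membrane-bound lectin chaperone calnexin, had -0.12 and -0.10. Over the 12 chaperone genes the median log2 difference was 0.24 in the ANXA2 comparison, with 10 of 12 above 0, and 0.11 in the ANXA5 comparison, with 10 of 12 above 0. Over all tested genes the median was 0.02 with 54.1% above 0, and 0.01 with 52% above 0. Some lists of cell type markers shifted by similar or larger amounts. The 12 stromal cell markers had medians of 0.21 (11 above 0) in the ANXA2 comparison and 0.17 (8 above 0) in the ANXA5 comparison. The 10 neutrophil markers had 0.23 and 0.41, with 10 of 10 above 0 in both. Erythroid markers had -0.50 and 0.60, and plasma and B cell markers -0.11 and 0.076.

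The genes of ER-associated degradation, which carries misfolded proteins back to the cytosol for destruction, were higher on average in the ANXA2 knockout, without a call. Herpud1 (ENSMUSG00000031770.17, chromosome 8), a membrane scaffold of the degradation complex, had 9419, 6884 and 6299.8 normalised reads in ANXA2 knockout libraries, against 5601, 5254, 6059 and 4740.4 in wild type libraries. The groups were separate by a small margin. Its mean was 7534 ± 1658 in ANXA2 knockout libraries and 5414 ± 557 in wild type libraries (SD, n = 3 and 4), a log2 difference of 0.46 ± 0.157 (SE), limma adjusted p = 0.523. Without library 1 it was 0.29. Herpud1 had 6835, 6307, 5125 and 7805 normalised reads in ANXA5 knockout libraries, against 6126, 5751, 6692 and 5198 in wild type libraries, with knockout library 3 below every wild type library and a log2 difference of 0.12 (-0.17 to 0.42), which was 0.031 without knockout library 4.

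Syvn1, the ubiquitin ligase HRD1 at the centre of the complex, had 2917, 3148 and 2865 normalised reads in ANXA2 knockout libraries, against 1876, 2192, 2979.9 and 2473 in wild type libraries, where only wild type library 3 reached the knockout values. Its log2 difference was 0.34 ± 0.153 (SE), limma adjusted p = 0.573. Syvn1 had 2977, 3018, 2761 and 3522 normalised reads in ANXA5 knockout libraries, against 2052, 2399, 3291 and 2712 in wild type libraries, a log2 difference of 0.25 (-0.066 to 0.56) with wild type library 3 again inside the knockout range. Sel1l, the adaptor of HRD1, had 8525, 6506 and 5205 normalised reads in ANXA2 knockout libraries, against 5497, 5512, 5757 and 5240.2 in wild type libraries. Library 1 stood apart, and the log2 difference was 0.27 with all libraries and 0.082 without library 1, and in the ANXA5 comparison it was -0.018.

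Edem1, which trims mannose from misfolded glycoproteins and directs them to degradation, had 5419.9, 4691 and 5349 normalised reads in ANXA2 knockout libraries, against 3645, 4037, 4889 and 4924 in wild type libraries. Wild type libraries 3 and 4 lay inside the knockout range, and the log2 difference was 0.25 (-0.060 to 0.55). Edem1 had 5645, 5916, 4878 and 6413 normalised reads in ANXA5 knockout libraries, against 3986, 4419, 5399 and 5399 in wild type libraries, a log2 difference of 0.26 ± 0.125 (SE), limma adjusted p = 0.444. Sec61b, a subunit of the channel through which new proteins enter the ER, had 1363, 1826, 1664 and 1292 normalised reads in ANXA5 knockout libraries, against 1373, 1327, 985 and 1515 in wild type libraries, groups that overlapped with a log2 difference of 0.24, and of 0.26 in the ANXA2 comparison. Selenos, a selenoprotein that recruits the p97 ATPase to the ER membrane, had 0.15 and -0.032. The 6 degradation and translocation genes had a median log2 difference of 0.26 in the ANXA2 comparison with 6 of 6 above 0, and of 0.18 in the ANXA5 comparison with 4 of 6 above 0. Without ANXA5 knockout library 4 the second median was 0.11.

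**Figure D3:**
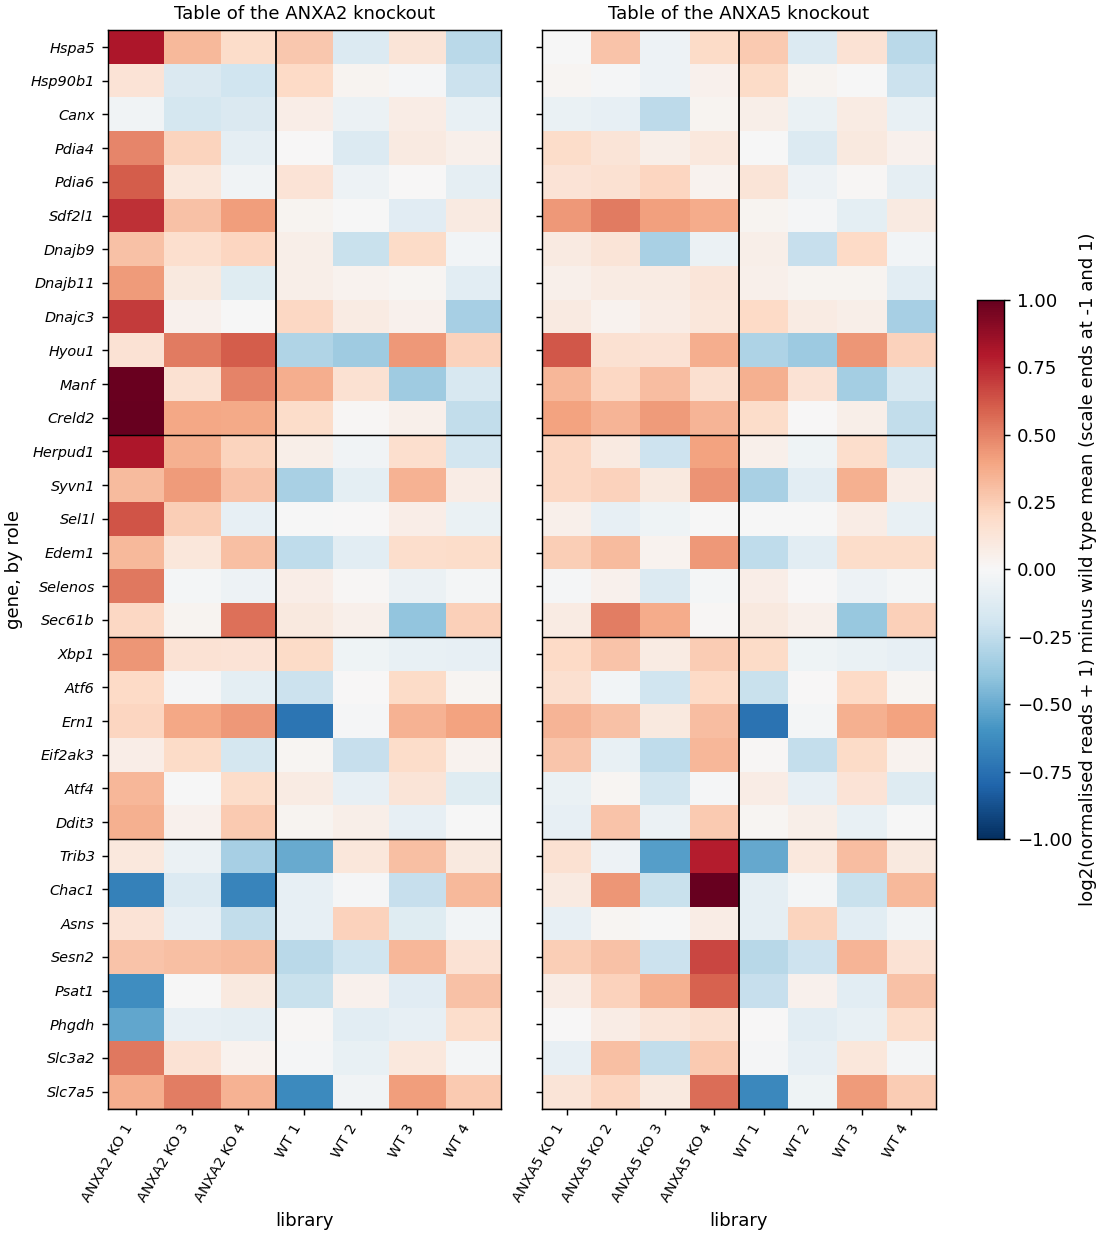
Log2(normalised reads + 1) of each gene in each library minus the wild type mean of its table, knockout libraries left of wild type libraries, genes grouped by role from chaperones (top) to ATF4 targets (bottom), colours ending at -1 and 1. Library 1 of the ANXA2 knockout is the darkest red column over the chaperone and degradation genes, and library 4 of the ANXA5 knockout over the ATF4 targets.

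Library 1 of the ANXA2 knockout stood apart from the other libraries of its group. It was the highest of the 3 in 22 of 32 members and in 15 of the 18 chaperone and degradation genes. Averaged over the 12 chaperone genes, log2 values lay 0.53 above the wild type mean in library 1, 0.166 above it in library 3 and 0.142 above it in library 4, against -0.0968 to 0.105 in wild type libraries. Without library 1 the median of the chaperone genes was 0.13, and that of the degradation genes 0.25. The log2 differences without it were 0.35 for Sdf2l1, 0.38 for Creld2, 0.29 for Herpud1, 0.32 for Manf, 0.25 for Hspa5, 0.56 for Hyou1, -0.40 for Chac1, 0.14 for Xbp1, 0.092 for Atf4, 0.093 for Slc3a2 and -0.035 for Selenos, with 0 members called by limma. Library 1 also had the lowest sums of its group in macrophage markers (84910 normalised reads, against 110200 and 165500 in libraries 3 and 4) and in neutrophil markers (291000, against 436200 and 702700). The same held for stromal cell markers (1253000, against 1936000 and 1455000). It held as well for erythroid markers (14260, against 26210 and 31330) and endothelial markers (3493, against 5123 and 4316). In plasma and B cell markers library 1 had 36410, against 35040 and 48200. The heat shock cochaperone Bag3 was at 12046 normalised reads in library 1, 6972 in library 3 and 6820.3 in library 4, against 4891, 3787, 6869 and 5763 in wild type libraries. The part of these differences in the chaperone values was not tested. In the ANXA5 table the average over the chaperone genes was 0.191, 0.161, 0.0856 and 0.151 above the wild type mean in knockout libraries 1 to 4, and 3 of the 4 exceeded the highest wild type library at 0.101.

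**Figure D4:**
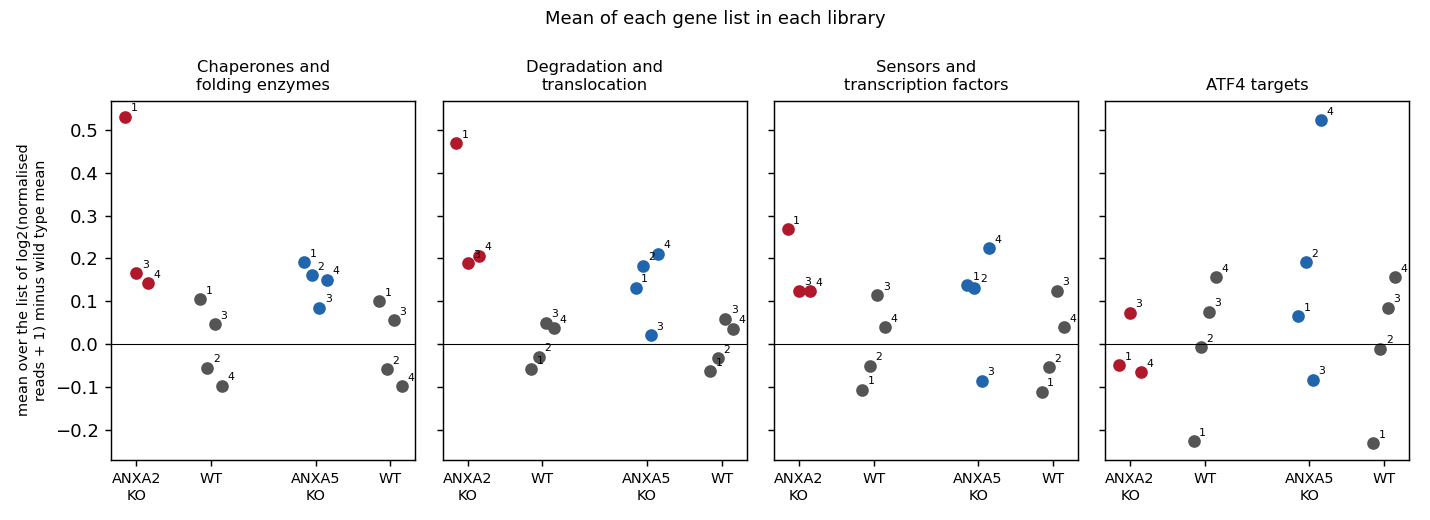
Mean over each gene list of the log2 deviation from the wild type mean in every library (points numbered as in the tables), each knockout (KO) left of the wild type (WT) of its own table; the horizontal line marks 0. ANXA2 knockout library 1 lies at 0.53 for the chaperones, and ANXA5 knockout library 4 at 0.522 for the ATF4 targets.

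The sensors and transcription factors differed little in RNA level, and none passed the threshold. Xbp1, whose RNA is itself raised by the response and whose protein drives the degradation genes, had 7017, 7462, 6489 and 7299 normalised reads in ANXA5 knockout libraries, against 6975, 5935, 5862 and 5792 in wild type libraries. Wild type library 1 lay within the knockout values and the other 3 wild type libraries below them, and the log2 difference was 0.20 ± 0.0901 (SE), limma adjusted p = 0.410. In the ANXA2 table Xbp1 had 7563, 6158 and 6139.6 normalised reads in ANXA2 knockout libraries, against 6378, 5422, 5308 and 5282 in wild type libraries, with wild type library 1 above knockout libraries 3 and 4 and a log2 difference of 0.24 (-0.039 to 0.52). Splicing of Xbp1 by IRE1, which marks its active form, was not measured by these gene counts.

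Ddit3, the transcription factor CHOP of prolonged stress, had 680.1, 545 and 635 normalised reads in ANXA2 knockout libraries, against 539, 553, 501 and 529 in wild type libraries. Library 3 overlapped the wild type, and the log2 difference was 0.22 (-0.040 to 0.48). Ddit3 had 549, 710.4, 559 and 698 normalised reads in ANXA5 knockout libraries, against 589.8, 605, 553 and 579.7 in wild type libraries, 2 knockout libraries above and 2 within or below the wild type range. Atf4, which is controlled largely at translation, had 8815, 7001 and 7960.2 normalised reads in ANXA2 knockout libraries, against 7401, 6621, 7651 and 6427 in wild type libraries, a log2 difference of 0.17 (-0.10 to 0.45). Atf4 had 7361, 7798, 6765 and 7629 normalised reads in ANXA5 knockout libraries, against 8094, 7247, 8449.9 and 7048 in wild type libraries, where the difference was -0.059 and the groups overlapped.

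Ern1, the sensor IRE1, had 802, 904 and 936 normalised reads in ANXA2 knockout libraries, against 416, 685, 878 and 912 in wild type libraries. Wild type library 1 was far below the rest, and the log2 difference of 0.35 had an interval of -0.23 to 0.92. Ern1 had 959, 930.3, 813 and 941 normalised reads in ANXA5 knockout libraries, against 455, 749, 969.7 and 1000.5 in wild type libraries, a difference of 0.26 with the same low wild type library. Without wild type library 1 the differences were 0.10 in the ANXA2 comparison and 0.016 in the ANXA5 comparison. Atf6 and Eif2ak3 had 0.030 and 0.028 in the ANXA2 comparison and 0.033 and 0.072 in the ANXA5 comparison. The median of the 6 sensor and factor genes was 0.20 with 6 of 6 above 0 in the ANXA2 comparison and 0.09 with 5 of 6 above 0 in the ANXA5 comparison. Without ANXA2 knockout library 1 the first of these medians was 0.12, and without ANXA5 knockout library 4 the second was 0.017.

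The ATF4 targets stood on both sides of 0 in the ANXA2 knockout: their median log2 difference was -0.08 with 3 of 8 above 0, beside 0.24 for the chaperones. That median was 0.025 without knockout library 4, which turns its sign, and -0.16 without wild type library 1. In the ANXA5 knockout the median was 0.17 with 8 of 8 above 0, and 0.073 without wild type library 1. The count includes Asns at 0.0037, which was below 0 with TMM scaling, edgeR, DESeq2, limma-voom and the Xist covariate. Chac1 (ENSMUSG00000027313.4, chromosome 2), which degrades glutathione and is a sensitive ATF4 target, had 65.7, 96.0 and 66.3 normalised reads in ANXA2 knockout libraries, against 99.6, 104, 89.7 and 132 in wild type libraries. Library 3 reached into the wild type range, and the log2 difference was -0.49 ± 0.214 (SE), limma adjusted p = 0.573. Chac1 had 123, 158, 99.1 and 246 normalised reads in ANXA5 knockout libraries, against 109, 114, 99.0 and 145 in wild type libraries, where library 4 stood above the rest and library 3 at the lower end of the wild type. Its log2 difference there was 0.35 (-0.23 to 0.93), and 0.10 without library 4.

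Psat1 and Phgdh, enzymes of serine synthesis, were on average lower in the ANXA2 knockout and higher in the ANXA5 knockout, without a call. Psat1 had 589, 655, 714 and 842 normalised reads in ANXA5 knockout libraries, against 476, 575, 521 and 685 in wild type libraries. Wild type library 4 lay inside the knockout range, and the log2 difference was 0.31 ± 0.142 (SE), limma adjusted p = 0.422. In the ANXA2 table Psat1 had 331, 507 and 545 normalised reads in ANXA2 knockout libraries, against 435, 526, 472 and 625 in wild type libraries, where library 1 was below every other library and the difference of -0.18 became 0.045 without it. Phgdh had 915, 1237 and 1235 normalised reads in ANXA2 knockout libraries, against 1320.1, 1221, 1239 and 1484 in wild type libraries. Library 1 was again the lowest of all and the other 2 lay inside the wild type range, and the difference was -0.23 (-0.54 to 0.079). In the ANXA5 comparison it was 0.090 (-0.10 to 0.28).

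Sesn2, a stress-induced inhibitor of mTORC1, had 1469, 1484 and 1503 normalised reads in ANXA2 knockout libraries, against 998, 1048, 1515 and 1331 in wild type libraries. The knockout libraries were close together inside the upper part of the wild type range, and the log2 difference was 0.30 (-0.044 to 0.65). Sesn2 had 1571, 1619, 1138 and 2102 normalised reads in ANXA5 knockout libraries, against 1092, 1147, 1673 and 1459 in wild type libraries, a difference of 0.25 with library 4 highest. Slc7a5 and Slc3a2 encode the light and heavy chain of a large amino acid transporter. Slc7a5 had 2244, 2485 and 2215 normalised reads in ANXA2 knockout libraries, against 1121, 1699, 2328 and 2086 in wild type libraries. Wild type library 1 was low and library 3 inside the knockout range, and the log2 difference was 0.41 (-0.10 to 0.92). Slc7a5 had 2089, 2224, 2043 and 2814 normalised reads in ANXA5 knockout libraries, against 1226, 1859, 2571 and 2287 in wild type libraries, a difference of 0.25. Without wild type library 1 the differences were 0.19 in the ANXA2 comparison and 0.034 in the ANXA5 comparison.

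Slc3a2 had 6494, 4981 and 4616 normalised reads in ANXA2 knockout libraries, against 4466, 4267, 4826 and 4446 in wild type libraries. Library 1 was highest, library 3 lay just above the wild type and library 4 within it, with a log2 difference of 0.24 in the ANXA2 comparison and 0.060 in the ANXA5 comparison. Asns, the asparagine synthetase, had -0.063 and 0.0037, and Trib3, a pseudokinase that restrains ATF4, had -0.094 and 0.084. Averaged over the 8 ATF4 targets, log2 values in ANXA5 knockout libraries 1 to 4 were 0.0657, 0.191, -0.0828 and 0.522 from the wild type mean, against -0.231 to 0.156 in wild type libraries, with library 2 just above and library 4 far above the highest wild type library. Without library 4 the median of the ATF4 targets was 0.085.

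Both knockouts were then set against each other in 1 fit of all 11 libraries, with recovered reads brought to a joint scale by TMM factors. limma called 0 of 32 members, where 48 of 16791 genes (0.286%) were called, and edgeR, limma-voom and DESeq2 called 0 members as well, with 0.262%, 0.28% and 2.36% of genes called. At an unadjusted p under 0.05, 3 members were lower in the ANXA2 knockout (Chac1, Psat1 and Phgdh), all of them ATF4 targets, and 0 were higher, against 6.73% and 6.76% of all genes (13.5% in all). Chac1 had 71.3, 104 and 72.1 reads in ANXA2 knockout libraries, against 122, 157, 99.3 and 241 in ANXA5 knockout libraries, with 109, 114, 97.0 and 145 in wild type libraries. Only ANXA2 knockout library 3 and ANXA5 knockout library 3 crossed, and Chac1 was lower by a log2 difference of -0.85 ± 0.274 (SE, limma adjusted p = 0.239). Psat1 had 359, 548 and 592 reads in ANXA2 knockout libraries, against 587, 653, 716 and 825 in ANXA5 knockout libraries, with 477, 574, 510.2 and 684 in wild type libraries. The knockouts overlapped by a single pair of libraries, and the log2 difference was -0.50 ± 0.185 (SE), limma adjusted p = 0.295.

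Phgdh had 992, 1336 and 1341 reads in ANXA2 knockout libraries, against 1440.0, 1511, 1572 and 1573 in ANXA5 knockout libraries, with 1447, 1333, 1340.4 and 1625 in wild type libraries. The ANXA2 knockout lay wholly below the ANXA5 knockout, as 6.61% of all genes did (12.7% were separate in either direction), and the log2 difference was -0.33 ± 0.118 (SE), limma adjusted p = 0.276. Without ANXA2 knockout library 1 the differences were -0.75 for Chac1, -0.27 for Psat1 and -0.18 for Phgdh. Dnajb9 lay wholly above (2606, 2390.2 and 2473 reads in ANXA2 knockout libraries, against 2291, 2353, 1724 and 2027 in ANXA5 knockout libraries), as 6.07% of all genes did, with a log2 difference of 0.26 ± 0.123 (SE), limma adjusted p = 0.385. For Hspa5 the difference between the knockouts was 0.32 (-0.089 to 0.73, 95% interval) and for Creld2 0.23 (-0.12 to 0.58), which without ANXA2 knockout library 1 were 0.14 and 0.0026. In this comparison 22 of 32 members had a log2 difference above 0, against 49% of all genes, and 15 of 32 were above 0 without ANXA2 knockout library 1. The median over the chaperones was 0.09 (higher in the ANXA2 knockout), and -0.059 without its library 1. Over the ATF4 targets it was -0.13, and -0.0080 without ANXA5 knockout library 4.

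**Figure D5:**
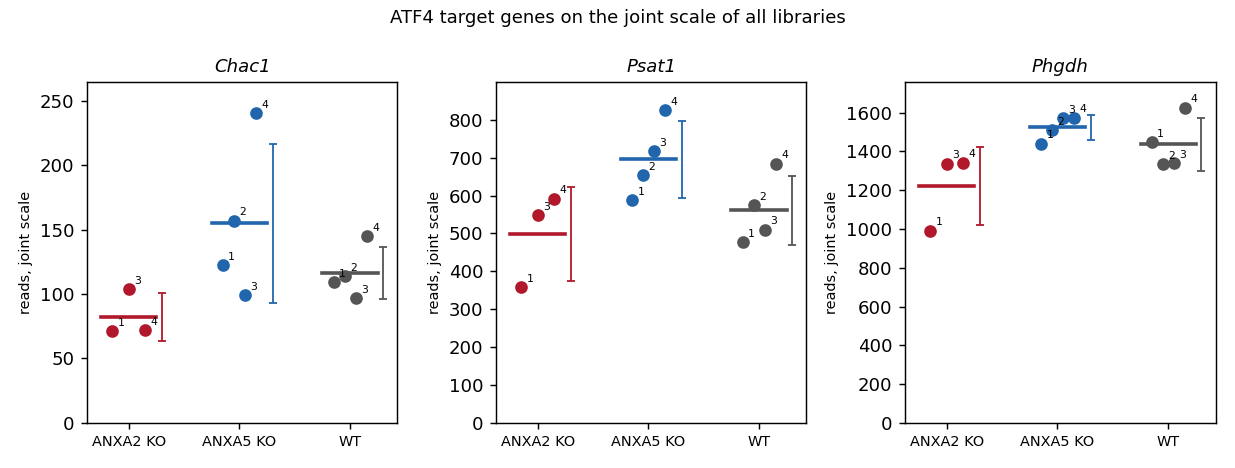
Reads on the joint scale of Chac1, Psat1 and Phgdh in every library of the ANXA2 knockout (KO), the ANXA5 knockout and the wild type (WT), with mean (bar) and SD (error bar). Phgdh separates the knockouts, with ANXA2 knockout library 1 lowest at 992 and ANXA5 knockout library 1 the nearest at 1440.0, while Chac1 and Psat1 overlap by single libraries.

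Genes of the same pathways outside the 32 members were read from 6 further lists, and limma called 0 of their genes in either comparison with the wild type or between the knockouts. Other ER chaperones, oxidoreductases and glycoprotein folding genes (28 genes) had a median log2 difference of 0.057 in the ANXA2 comparison and -0.011 in the ANXA5 comparison. Txndc12, a thioredoxin-like ER protein, had 741, 637 and 633 normalised reads in ANXA2 knockout libraries, against 542, 515, 504 and 547 in wild type libraries, separate groups with a log2 difference of 0.34 ± 0.107 (SE), limma adjusted p = 0.518. Fkbp11, a prolyl isomerase of secretory cells, had 289.6, 345, 311 and 258 normalised reads in ANXA5 knockout libraries, against 256, 220.5, 186 and 243 in wild type libraries, also separate, with 0.41 ± 0.138 (SE), limma adjusted p = 0.326. Mesd, the chaperone of LDL receptor family proteins, lay wholly below the wild type in the ANXA5 table, at 2012, 1919.7, 1818 and 1771 normalised reads in knockout libraries and 2235, 2153, 2206 and 2046 in wild type libraries. The 22 other degradation genes had medians of 0.095 in the ANXA2 comparison, with 20 of 22 above 0, and 0.016 in the ANXA5 comparison, with 12 of 22 above 0.

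Among the 22 genes of the translocon, signal peptidase and ER export, the medians were 0.018 in the ANXA2 comparison and 0.0048 in the ANXA5 comparison. Ssr2, a subunit of the translocon-associated complex, lay wholly above the wild type in the ANXA2 table (2811, 2566 and 2613 normalised reads in knockout libraries, 2214, 2158, 2011 and 2296 in wild type libraries), with a log2 difference of 0.30 ± 0.0935 (SE), limma adjusted p = 0.518. The 17 other sensors, proteases and CREB3 factors had medians of 0.048 and 0.047. Tmbim6, an ER membrane protein that restrains IRE1 and cell death, had 5986, 7378 and 7659 normalised reads in ANXA2 knockout libraries, against 2909, 3525, 5611 and 5967 in wild type libraries. Its groups were just separate, with wild type libraries 1 and 2 again the low pair, and the log2 difference was 0.69 ± 0.252 (SE), limma adjusted p = 0.544. Of the 36 other ATF4 and CHOP targets, 35 were tested, with medians of 0.065 in the ANXA2 comparison and -0.010 in the ANXA5 comparison. At an unadjusted limma p under 0.05, 7 were higher and 0 lower in the ANXA2 comparison, against 4.65% and 4.04% of all genes. In the ANXA5 comparison 1 was higher and 2 lower, against 6.48% and 5.45%. Cebpb, Vldlr and Jdp2 lay wholly above the wild type in the ANXA2 table, with log2 differences of 0.61, 0.39 and 0.34. There 1 gene of the list lay wholly below, against 4.56% of all genes above and 4.63% below. Between the knockouts 5 were higher in the ANXA2 knockout and 2 lower at the same unadjusted p, against 6.76% and 6.73% of all genes. In that comparison Atf3, a stress factor downstream of ATF4 and of other signals, was at 31095, 16287 and 15613 reads in ANXA2 knockout libraries and 10543, 13621, 8091 and 8176 in ANXA5 knockout libraries, separate groups with a log2 difference of 1.01 ± 0.284 (SE), limma adjusted p = 0.195. Wild type libraries had 15914, 12170, 22975 and 12637 reads of Atf3 on the same scale. That range held ANXA2 knockout libraries 3 and 4 and ANXA5 knockout library 2. The 18 cytosolic and mitochondrial chaperones had medians of -0.036 in the ANXA2 comparison and 0.096 in the ANXA5 comparison.

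Markers of other cell types differed between the groups to differing extents. Plasma cells are rich in the chaperones described here, and of 19 plasma and B cell markers 17 were listed in the ANXA2 table. Their summed level was 35040 to 48200 normalised reads in ANXA2 knockout libraries and 30740 to 40050 in wild type libraries. Igkc, an immunoglobulin light chain, had 6624, 7411 and 10457 normalised reads in ANXA2 knockout libraries, against 4864, 6002, 3658 and 5508 in wild type libraries, and Jchain had 1291, 1403 and 1984 normalised reads in ANXA2 knockout libraries, against 984, 948, 529.8 and 848 in wild type libraries. Both were separate and higher in the knockout, while the B cell factor Pou2af1 was separate and lower, at 727, 683 and 986 in knockout libraries and 987, 1284, 1254 and 1103 in wild type libraries. Of the 17 markers, 6 were above 0 and 11 below, and the smallest limma adjusted p was 0.446. In the ANXA5 comparison 18 of these markers were listed, and they summed to 38300 to 60960 normalised reads in knockout libraries and 33950 to 43890 in wild type libraries. Of the 18 markers, 14 were above 0 and 4 below, with a median log2 difference of 0.076. Igkc had 8109, 14537, 8231 and 8372 normalised reads in ANXA5 knockout libraries, against 5319.7, 6570.1, 4039.8 and 6039.7 in wild type libraries, separate groups, and Ighg1 had 189.7, 1181, 475 and 579 in ANXA5 knockout libraries against 63.7, 45.4, 0 and 4.21 in wild type libraries, where wild type library 3 is the only one listed at 0. Jchain overlapped, at 1119.5, 2882, 1006 and 1329.8 in ANXA5 knockout libraries and 1076, 1038, 585 and 930.0 in wild type libraries.

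The 14 macrophage markers were all above 0 in the ANXA5 comparison, with sums of 125200 to 158800 normalised reads in knockout libraries and 89550 to 137000 in wild type libraries, and 9 of 14 were above 0 in the ANXA2 comparison. All 10 neutrophil markers were above 0 in both comparisons, with sums of 477800 to 664400 in ANXA5 knockout libraries and 339700 to 606100 in wild type libraries. The 8 erythroid markers were all below 0 in the ANXA2 comparison (sums of 14260 to 31330 in knockout libraries and 15520 to 60260 in wild type libraries) and all above 0 in the ANXA5 comparison (44900 to 79780 in knockout libraries and 16970 to 65960 in wild type libraries). Endothelial markers, 8 in all, lay wholly above the wild type for 5 genes in the ANXA5 table, with sums of 5060 to 7629 normalised reads in knockout libraries and 3964 to 5141 in wild type libraries. Their median log2 difference was 1.20 there, with 7 of 8 above 0. Pecam1 had 932, 861, 1235 and 1354 normalised reads in ANXA5 knockout libraries, against 374, 649.7, 588 and 764 in wild type libraries. Of the other defining markers, Ptprc had 3232, 3802 and 5184 normalised reads in ANXA2 knockout libraries against 3942, 4437, 3907 and 4138 in wild type libraries, and 4855, 5678, 4776 and 6486 in ANXA5 knockout libraries against 4312, 4857, 4315 and 4537 in wild type libraries. S100a8 ran over 17330.1 to 75391 normalised reads in ANXA2 knockout libraries and 18286 to 47090.2 in wild type libraries, and Hba-a1 over 4699 to 9946 and 4674 to 18261. Jchain, Igkc, Ptprc, S100a8, Hba-a1 and Pecam1 were above 0 in every library. However, no knockout value of either table was 0. In wild type libraries, 188 rows of the ANXA2 table and 412 of the ANXA5 table held a 0, in a single library per table. Being above 0 was therefore nearly given for any listed gene, and it cannot decide which cell types were present. No marker passed the threshold in limma, and the part of these cell types in the differences of the 32 genes was not tested.

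Some members share exon bases with another annotated gene in GENCODE vM21, and the strand setting of the authors' counting is not given in the sources used here. Hsp90b1, Pdia6, Manf, Syvn1, Eif2ak3 and Ddit3 overlap a gene on the opposite strand by 50 to 485 bases. On the same strand Hsp90b1 overlaps Gm15344 by 84 bases and Gm25745 by 133, and Pdia4 and Manf each overlap a gene by 14. The counts of these members could gain or lose reads over the shared bases. Sdf2l1, Creld2, Hspa5 and Herpud1 have no such overlap.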

How the data were processed

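The authors deposited 1 table per knockout, holding a normalised signal per gene and library under columns that, per the file headers, carry the names DESeq2 gives. The values show that this signal is a read count over 1 scaling factor for each library. The authors' processing used Trim Galore, STAR, HTSeq, DESeq2 and build GRCm39, per the submitters' processing notes, with versions not given in the sources used here. The deposited tables also hold the authors' log2 fold change, knockout over wild type, with its p-value and adjusted p-value. A deposited test score has the opposite sign and was not used. RNA came from an RNeasy mini plus kit and libraries from NEBNext modules, per the labels' protocols. Dividing by the value of 1 read gave whole reads for 100% of values in both tables, within 0.001, with 23304225 to 35654634 reads per library. Precision is lowest for Chac1, with as few as 61 reads in a library.

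From these values, log2(value + 1) was tested with limma 3.58.1 in R 4.3.3, two-sided, per table, for genes reaching 10 in a number of libraries equal to the size of the smaller group. P-values were adjusted by Benjamini-Hochberg over all genes tested, with a threshold of 0.05, and each ± beside a log2 difference is its standard error. Fold changes on this scale understate the change of low genes. The knockouts were compared in 1 limma fit on recovered reads of all 11 libraries, scaled with TMM, over genes in both tables. Alternatives were TMM or DESeq2 scaling, pseudocounts of 0.5 and 5, no filter or a minimum of 50, edgeR 4.0.16, DESeq2 1.42.0 and limma-voom on recovered reads, log2 Xist as a covariate, the replicate number as a block, and leaving out each library. The limma fits were run on simulated reads with planted changes larger than any member difference. The simulation therefore says nothing on finding differences of the size seen in the members. The members and lists were chosen with earlier results of these data known. By the rule for named genes, all 32 members are named. Values in every library are given for the 4 members of smallest p in each list and comparison with the wild type and for Xbp1, Atf4 and Ddit3. They are also given for up to 3 genes of each other list and for defining markers. Between the knockouts, single members are given for 6 genes chosen after their values were seen, as were Hyou1 and Phgdh in the ANXA2 table. Chromosomes and exon overlaps come from GENCODE vM21 and promoters from RefSeq on GRCm38.p6.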

Additional observations from a re-analysis of the deposited data

Results flagged for a closer look

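Of 96 groups of 4 libraries examined for a single library far from the rest, 3 held one, and chance flags about 1 in 20 groups. Xbp1 stood at 6378 normalised reads in wild type library 1 of the ANXA2 table, where the other 3 wild type libraries had 5282 to 5422. The gap was 0.872 of the range of the group, above Dixon's critical value for 4 values. The same library stood apart in the ANXA5 table, at 6975 normalised reads against 5792 to 5935 in the other 3, a gap of 0.88 of the range. Both values come from the same reads. Dnajb11, which encodes the BiP partner ERdj3, stood at 3065 normalised reads in wild type library 4 of the ANXA5 table, where the other 3 wild type libraries had 3371 to 3426, a gap of 0.847 of the range.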

How the results depend on the processing

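No member was called under any alternative except DESeq2, which called 2 in the ANXA5 comparison, where limma called 0. The number of genes called in the ANXA2 comparison was 18, and it was 107 with DESeq2 and 284 with Xist as a covariate. In the ANXA5 comparison it was 5, and 278 with DESeq2. Between the knockouts it was 48, and 397 with DESeq2 and 73 with Xist as a covariate. The median of the chaperones between the knockouts was 0.09, and 0.1126 with DESeq2. The cause of these changes was not tested. ANXA5 knockout and wild type libraries share numbers in the labels, and correlations between libraries of the same number were 0.0494, -0.0745, -0.252 and 0.067. They were taken over all genes on deviations from the mean of each small group. These correlations therefore cannot decide whether the numbers pair the samples. With the replicate number as a block 8 genes were called in the ANXA5 comparison, 0 of them members. No paired analysis was possible because the ANXA2 column numbers (1, 3 and 4) are not those of the titles, for that knockout.

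Leaving out 1 library at a time, the genes called ran over 8 to 16 (ANXA2), 4 to 32 (ANXA5, 32 without wild type library 4) and 19 to 63 (between the knockouts), and 0 members were called each time. The chaperone median ran over 0.1298 to 0.3577 (ANXA2, lowest without knockout library 1) and -0.05878 to 0.2204 (between the knockouts). The degradation median ran over 0.2465 to 0.3226 (ANXA2) and 0.1054 to 0.2171 (ANXA5). Sdf2l1 ran over 0.3531 to 0.5728 (ANXA2) and 0.40 to 0.4629 (ANXA5), and its lowest limma adjusted p was 0.0665. Log2 differences near 0 changed sign. In the ANXA2 comparison these were Asns (-0.1628 to 0.0264), Atf6 (-0.0551 to 0.09596), Dnajb11 (-0.01015 to 0.2623), Eif2ak3 (-0.05293 to 0.1288), Psat1 (-0.3138 to 0.04528), Selenos (-0.03504 to 0.2536) and Trib3 (-0.2632 to 0.02429). In the ANXA5 comparison they were Asns (-0.03263 to 0.07844), Atf6 (-0.04071 to 0.1103), Dnajb9 (-0.1168 to 0.05414), Dnajc3 (-0.03477 to 0.1436), Eif2ak3 (-0.01449 to 0.1803), Hsp90b1 (-0.0706 to 0.06589), Sel1l (-0.04208 to 0.007167), Selenos (-0.0563 to 0.001864), Slc3a2 (-0.02002 to 0.1613) and Trib3 (-0.1503 to 0.2953). Hsp90b1 in that comparison was -0.003118 with TMM, -0.0126 with edgeR, -0.008683 with DESeq2, -0.006673 with limma-voom and -0.02367 with the Xist covariate, and Asns was -0.0004946, -0.008553, -0.005904, -0.005985 and -0.009142 in the same order. With 3 or 4 libraries a group, the number of libraries limits the precision, and depth limits it most for Chac1.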
